A study of Mus musculus with 6 samples.

Results

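The genes described here are 10 genes of the reelin pathway and of Cajal-Retzius cells. The choice was by symbol for what they are known to do, with earlier results of these data known. They are *Reln*, *Vldlr*, *Lrp8*, *Dab1*, *Crk* and *Crkl* of the signalling route, and *Trp73*, *Lhx1*, *Lhx5* and *Calb2*, which mark Cajal-Retzius cells. Each symbol matched 1 of the 59484 features in the deposited table, of which 23505 carried a symbol. Each of the 10 also passed the filter on low values, a mean of at least 10 normalized counts over the libraries.

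Polyadenylated RNA was sequenced from the cortex of 3 wild-type and 3 *Sam68*:*Slm2* double knockout (dKO) mouse embryos at embryonic day 18.5. Sam68 and SLM2, encoded by *Khdrbs1* and *Khdrbs3*, are related RNA-binding proteins that control alternative splicing in neurons. The mice were on a C57BL/6 background. According to the study the dKO came from matings between *Sam68*+/-:*Slm2*-/- parents. Such matings give no wild-type littermates, so an effect of litter and an effect of genotype cannot be told apart. Whether the embryos of a genotype came from separate litters is not given in the sources used here, and *P*-values measure the spread between these libraries.

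Reelin, the product of *Reln*, is a large secreted glycoprotein that guides the layering of the cerebral cortex. In the fetal cortex much of it comes from Cajal-Retzius cells, early-born neurons that lie in the marginal zone under the meninges and largely disappear after birth, while some interneurons also make it. Reelin binds the receptors VLDLR and ApoER2, the latter encoded by *Lrp8*, on migrating neurons, after which Src family kinases phosphorylate the intracellular adaptor DAB1 and DAB1 recruits the adaptors CRK and CRKL.

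The libraries held 31837922 to 40896541 reads on the listed features. *Khdrbs1* averaged 8213 ± 232 normalized counts in wild-type and 152 ± 41.5 in the dKO (SD, n = 3), and *Khdrbs3* averaged 13841 ± 1252 and 6652 ± 366. All 3 dKO libraries had low *Khdrbs1*, while *Khdrbs3* transcript stayed at 48.1% of its wild-type mean. Of 18970 features tested, 19 passed an adjusted *P*-value of 0.05 in limma (0.1%). Before adjustment 2181 (11.5%) were below 0.05. The genotypes did not overlap for 3104 features (16.4%), and 50.6% of features had a log2 fold change above 0. The 8 markers of cortical excitatory neurons and their precursors were all detected in every library under the tissue label cortex, with summed levels of 90777 to 122981 normalized counts in wild-type and 103278 to 134553 in the dKO.

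No member passed an adjusted *P*-value of 0.05 in limma, nor in edgeR or DESeq2 run on the recovered reads, where DESeq2 called 1.07% of all features and limma 0.1%. In limma, 1 of the 10, *Crkl*, had an unadjusted *P*-value under 0.05, a share of members that stands beside 11.5% of all features. *Crkl* was also the only member whose genotypes did not overlap, beside 16.4% of all features in either direction and 7.89% with dKO higher. Of the members, 7 were higher and 3 lower in the dKO by mean log2 value. Their median log2 fold change of 0.05 (range -0.28 to 0.24) stood beside 0.00 for all features, and all 10 lay within 1.5-fold, as did 89.1% of all features. The plot of member differences gives each estimate with its interval.

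**Figure D1:**
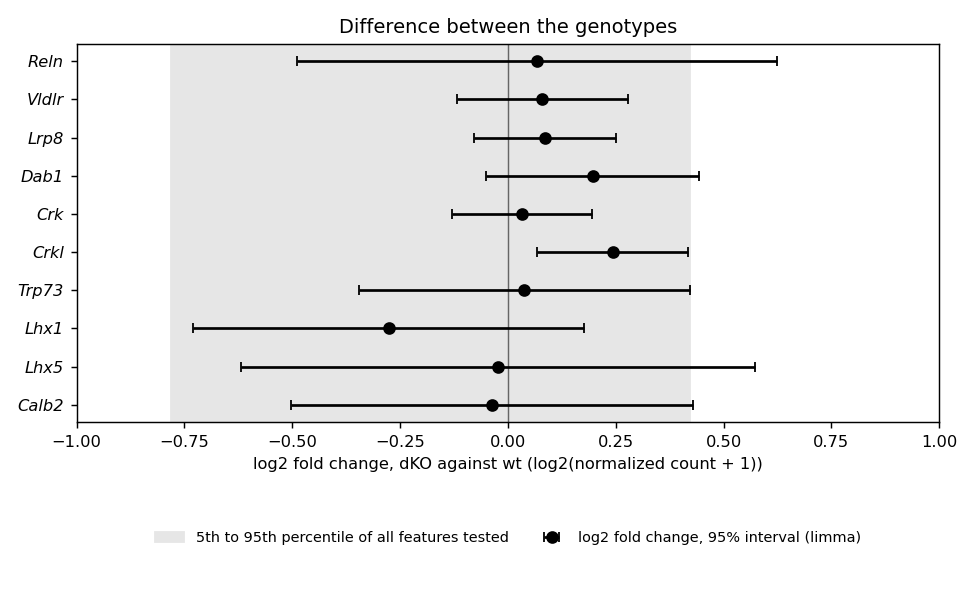
Log2 fold change (dKO minus wild-type, log2 of normalized count + 1) of each member in limma, with bars for the 95% interval, 3 libraries a genotype. The interval of *Crkl* (0.07 to 0.42) lies above 0, and those of the other 9 members cross 0.

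*Crk* and *Crkl* are related genes, and how far 2 paralogs share sequence bears on whether their reads can be told apart, which matters here because *Crkl* was the member with the smallest *P*-value. The longest stretch shared by their transcripts with a coding sequence, untranslated parts included, was read from the GENCODE M21 annotation of GRCm38. The shared bases are in capitals, with 3 flanking bases on each side in lower case. The stretch lies within 1 coding exon of each gene and is written 5′ to 3′ on the gene's own strand.
*Crk*, exon 2, plus strand, chr11:75692493-75692515: aggGGGATGATTCCTGTCCCTTACGTgga
*Crkl*, exon 2, plus strand, chr16:17469092-17469114: gttGGGATGATTCCTGTCCCTTACGTtga
The coordinates are those of the capitals. The shared stretch was 23 bases, far shorter than a sequencing read. Over all transcripts of a member, between 0% and 1.46% of windows of 50 bases also occurred in another annotated gene, except for *Trp73*, where 4.12% did, all of them in the antisense gene *Trp73os*. The kit keeps the strand, but the strand setting of the counting is not given in the sources used here, so reads of *Trp73* and *Trp73os* may not have been kept apart. *Lrp8* likewise has an antisense partner, *Lrp8os2*, among its overlapping features. Features of the table that overlap a member summed to at most 1.51% of that member's level, the value for *Reln*.

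*Reln* (chr5:21884454-22344706, mm10), the ligand, had 2899.9, 2879.7 and 1550.0 normalized counts in wild-type replicates 1 to 3. In dKO replicates 1 to 3 it had 2886, 2305 and 2239 normalized counts. The lowest and the highest value of all 6 libraries were both wild-type, and the 3 dKO libraries lay between them. The means were 2443 ± 774 in wild-type and 2476 ± 356 in the dKO (SD, n = 3). The log2 fold change was 0.07 with a standard error of 0.24 (limma, adjusted *P* = 0.933), and its 95% interval ran from a fold of 0.713 to 1.54. The exact two-sided permutation test gave *P* = 0.9, where the smallest value that 3 against 3 allow is 0.1.

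The estimate for *Reln* depended on wild-type replicate 3. Without that library the log2 fold change was -0.23 (limma, adjusted *P* = 0.729), and without any other single library it lay between -0.05 and 0.22. The coefficient of variation of *Reln* was 31.7% in wild-type and 14.4% in the dKO, against at most 2.03% that counting alone gives at this depth. In wild-type replicate 3 the summed level of 7 meningeal fibroblast markers was 1682 normalized counts, against 609 and 1032 in the other wild-type and 592 to 684 in the dKO libraries. All 7 of these markers were highest in that library, and 5 of 8 cortex markers were lowest there. So were 5 of the 10 members (*Reln*, *Lrp8*, *Dab1*, *Crk* and *Lhx5*), beside 18.0% of all features. The part of meningeal and cortical cells in the level of *Reln* was not tested. In bulk RNA, fewer cells of a type and less RNA per cell cannot be told apart.

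**Figure D2:**
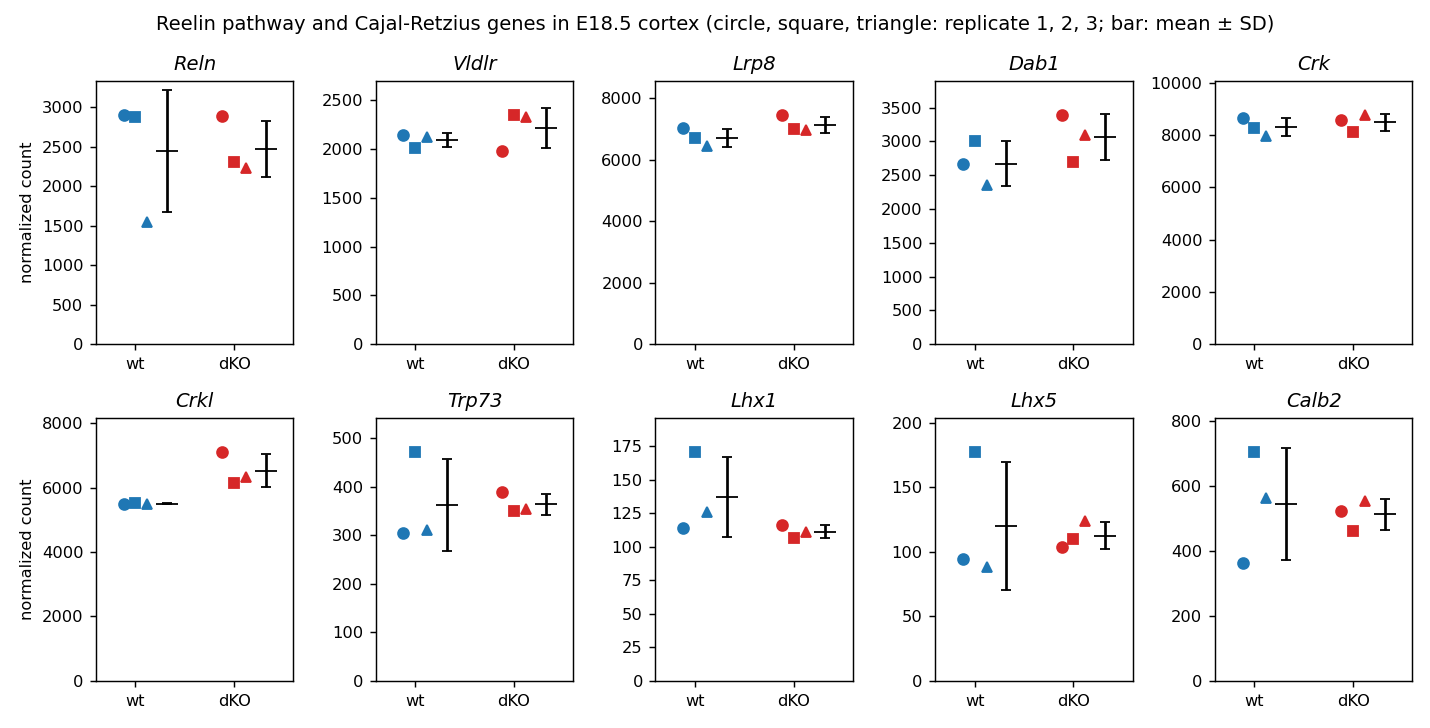
Normalized count of each member in each library (1 panel a gene, vertical axes linear and starting at 0), wild-type and dKO, with horizontal bars for the genotype means. *Reln* is low in wild-type replicate 3 (1550.0), and the *Crkl* values of dKO (6135 to 7106) all lie above those of wild-type (5484 to 5518).

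Among the receptors, *Vldlr* (chr19:27216483-27254231), a lipoprotein receptor family member that binds reelin, had 2139.9, 2013 and 2119 normalized counts in the wild-type replicates. It had 1982, 2342 and 2322 in the dKO replicates, so that the lowest library was dKO replicate 1 and the highest were the remaining dKO libraries. The means were 2091 ± 68.1 and 2215 ± 202 (SD, n = 3), a log2 fold change of 0.08 with a 95% interval of -0.12 to 0.28 (limma, adjusted *P* = 0.749; exact permutation *P* = 0.4). The genotypes overlapped, and the log2 fold change ran from 0.04 without dKO replicate 2 or 3 to 0.16 without dKO replicate 1.

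*Lrp8* (chr4:107802259-107876840), which encodes the other reelin receptor, ApoER2, had 7029, 6711 and 6440.3 normalized counts in wild-type and 7449.7, 7002 and 6961 in the dKO. The highest library was dKO replicate 1 and the lowest wild-type replicate 3, and only wild-type replicate 1 reached into the dKO range. The means were 6727 ± 294 and 7138 ± 271 (SD, n = 3), with a log2 fold change of 0.09 and a 95% interval of -0.08 to 0.25 (limma, adjusted *P* = 0.670; exact permutation *P* = 0.3). The log2 fold change of *Lrp8* was 0.05 without wild-type replicate 3 or dKO replicate 1. For both receptors the intervals leave out changes beyond 1.21-fold upward and, downward, beyond a fold of 0.921.

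*Dab1* (chr4:104367538-104744844), the adaptor that is phosphorylated when reelin binds its receptors, had 2660.2, 3007 and 2355 normalized counts in the wild-type replicates and 3387, 2702 and 3099 in the dKO replicates. The 2 highest libraries were dKO and the 2 lowest wild-type, while wild-type replicate 2 exceeded dKO replicate 2. The means were 2674 ± 327 and 3063 ± 344 (SD, n = 3). The log2 fold change was 0.20 with a standard error of 0.11 and a 95% interval of -0.05 to 0.44 (limma, adjusted *P* = 0.517; exact permutation *P* = 0.2). The log2 fold change of *Dab1* was 0.11 without wild-type replicate 3 and 0.12 without dKO replicate 1, and 0.28 without either wild-type replicate 2 or dKO replicate 2. The limma adjusted *P* in these 4 fits lay between 0.309 and 0.857.

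*Crkl* (chr16:17451985-17487440), an SH2 and SH3 domain adaptor that binds phosphorylated DAB1, had 5484, 5518 and 5503 normalized counts in wild-type cortex. In dKO cortex it had 7106, 6135 and 6335 normalized counts. Every dKO library was above every wild-type library. The means were 5502 ± 16.9 and 6525 ± 512 (SD, n = 3), and the log2 fold change was 0.24 (1.18-fold, standard error 0.08, 95% interval 0.07 to 0.42). The difference did not pass correction over all features (limma, adjusted *P* = 0.345), and the exact permutation test gave its smallest possible *P*, 0.1. The coefficient of variation in wild-type, 0.308%, was below the 1.32% that counting alone gives, while in dKO it was 7.85%. The log2 fold change of *Crkl* lay between 0.18 and 0.29 when each library was left out in turn.

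*Crk* (chr11:75679259-75708428), the paralog of *Crkl* with the same kind of domains, had 8655, 8258 and 7979 normalized counts in wild-type and 8585, 8132 and 8751 in the dKO. The genotypes overlapped over most of their range. The means were 8297 ± 339.7 and 8489 ± 321 (SD, n = 3), a log2 fold change of 0.03 with a 95% interval of -0.13 to 0.20 (limma, adjusted *P* = 0.882; exact permutation *P* = 0.6). Under quantile normalization the sign turned, to -0.04, and without 1 library the value lay between 0.0053 and 0.064. Whether *Crk* and *Crkl* differ in their change was not tested, and their intervals overlap.

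Of the receptors and adaptors, *Lrp8* and *Dab1* lie on chromosome 4 with the targeted gene *Khdrbs1*, at 21.8 and 24.96 Mb from it, and *Trp73* of the Cajal-Retzius markers lies there as well, 24.3 Mb away. An effect of alleles linked to the knockout and an effect of the knockout cannot be told apart in these libraries.

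*Trp73* (chr4:154056249-154140209) encodes p73, a p53 family transcription factor that Cajal-Retzius cells of the cortical hem need to survive. It had 304, 472 and 310.4 normalized counts in wild-type and 389, 350.3 and 354 in the dKO. Wild-type replicate 2 was the highest library and the other wild-type libraries were the lowest. The means were 362 ± 94.8 and 364 ± 21.6 (SD, n = 3), a log2 fold change of 0.04 with a 95% interval of -0.35 to 0.42 (limma, adjusted *P* = 0.949; exact permutation *P* = 1).

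*Lhx1* and *Lhx5* encode related LIM-homeodomain transcription factors made in Cajal-Retzius cells, *Lhx5* also in the cortical hem. *Lhx1* (chr11:84517975-84525537) had 114, 171 and 126 normalized counts in wild-type and 116, 107 and 111 in the dKO. *Lhx5* (chr5:120431770-120441457) had 94.2, 177 and 88.5 in wild-type and 103, 109.8 and 124 in the dKO. Both were highest in wild-type replicate 2. For *Lhx1* the means were 137 ± 29.8 and 111 ± 4.75 (SD, n = 3), with a log2 fold change of -0.28 and a 95% interval of -0.73 to 0.18 (limma, adjusted *P* = 0.618). For *Lhx5* they were 120.0 ± 49.7 and 112 ± 10.6 (SD, n = 3), with a log2 fold change of -0.02 and a 95% interval of -0.62 to 0.57 (limma, adjusted *P* = 0.980). These were the members with the fewest reads, 96 to 165 a library, and their intervals reach a fold of 0.603 below and 1.49 above equal levels. Without wild-type replicate 2 the log2 fold change of *Lhx1* was -0.11 and that of *Lhx5* turned to 0.29, and under quantile normalization that of *Lhx5* was 0.11.

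*Calb2* (chr8:110137502-110168213) encodes calretinin, a calcium-binding protein of Cajal-Retzius cells that is also made in a class of interneurons. It had 363, 704 and 564 normalized counts in wild-type and 522, 461 and 554 in the dKO. The lowest and the highest library were both wild-type, as for *Reln*. The means were 544 ± 171 and 512 ± 47.3 (SD, n = 3), a log2 fold change of -0.04 with a 95% interval of -0.50 to 0.43 (limma, adjusted *P* = 0.960; exact permutation *P* = 0.8). Leaving out wild-type replicate 2 turned the log2 fold change to 0.17.

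The 4 Cajal-Retzius markers other than *Reln* shared their highest library but not their lowest. The lowest was wild-type replicate 1 for *Trp73* and *Calb2*, dKO replicate 2 for *Lhx1* and wild-type replicate 3 for *Lhx5*. All 4 were highest in wild-type replicate 2, which was the highest library for 14.1% of all features. In log2 units that library lay above the mean of the 6 libraries by 0.39 for *Trp73*, 0.47 for *Lhx1*, 0.64 for *Lhx5* and 0.44 for *Calb2*. Its *Reln* value lay 0.26 above the mean, below those of wild-type replicate 1 and dKO replicate 1. The median log2 fold change of the 10 members was 0.05 with all libraries and 0.20 without wild-type replicate 2. With that library left out, still no member passed an adjusted *P*-value of 0.05 in limma, and *Dab1* joined *Crkl* below 0.05 before adjustment. That was 2 of the 10 members, beside 14.3% of all features in that fit.

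**Figure D3:**
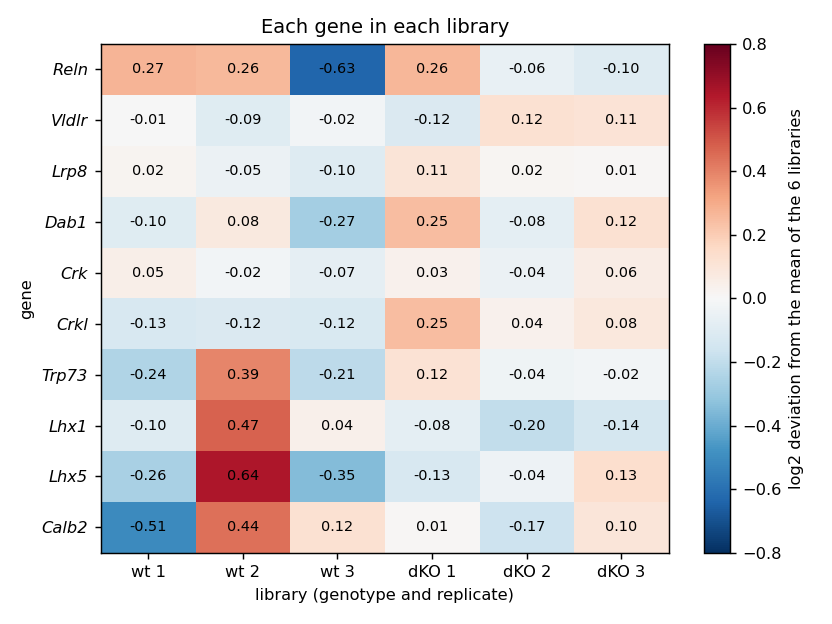
Deviation of each member in each library from its mean over the 6 libraries, in log2 units, with 1 row a gene and 1 column a library. Wild-type replicate 2 is the highest library for *Trp73*, *Lhx1*, *Lhx5* and *Calb2* (0.39 to 0.64), and wild-type replicate 3 is the lowest for *Reln* (-0.63).

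The coefficient of variation of these markers was larger among wild-type than among dKO libraries, which for *Trp73* and *Lhx5* rested on wild-type replicate 2, since the remaining wild-type values lay close together (304 and 310.4, and 94.2 and 88.5). For *Trp73*, *Lhx1*, *Lhx5* and *Calb2* the coefficient of variation was 21.8% to 41.4% among wild-type libraries against 4.26% to 9.41% among dKO libraries. Counting alone gives 4.23% to 9.07% in wild-type, so the wild-type values stood above counting error, while for *Lhx1* and *Lhx5* the dKO values were below what counting gives. With *Reln* counted in, 5 of 5 Cajal-Retzius genes were more variable in wild-type, and 8 of 10 members were. Among all features 49.6% were wider in wild-type, and the median coefficient of variation was 12.3% in wild-type and 12.1% in dKO. These counts rest on 3 libraries a genotype and the difference in spread was not tested.

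Levels can be set beside each other between genes per length of transcript. Per kb of annotated exons, *Crk* had the highest level of the members, 1774 ± 66.3 normalized counts per kb (SD, n = 6 libraries), followed by *Crkl* with 1193 ± 128 and *Lrp8* with 659 ± 32.2. Next in order were *Dab1* with 363 ± 46.5, *Calb2* with 303 ± 65.1 and *Vldlr* with 214 ± 15.0 normalized counts per kb. The transcript of the receptor ApoER2 was thus higher per kb than that of VLDLR in every library. *Reln* had 104 ± 22.7, *Trp73* 65.6 ± 11.1, *Lhx5* 43.2 ± 12.04 and *Lhx1* 30.5 ± 5.82 normalized counts per kb. The libraries of neighbours in this order overlapped for *Dab1* with *Calb2*, *Calb2* with *Vldlr*, *Reln* with *Trp73*, *Trp73* with *Lhx5* and *Lhx5* with *Lhx1*.

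Per kb of the longest annotated transcript the order was the same. *Reln*, whose exons span 23738 bases in all and 11699 in the longest transcript, then had 210.3 normalized counts per kb and no longer overlapped *Trp73*, while *Lrp8*, at 1046, overlapped *Crkl*. The route's intracellular adaptors thus had higher levels per kb than the ligand on either length.

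**Figure D4:**
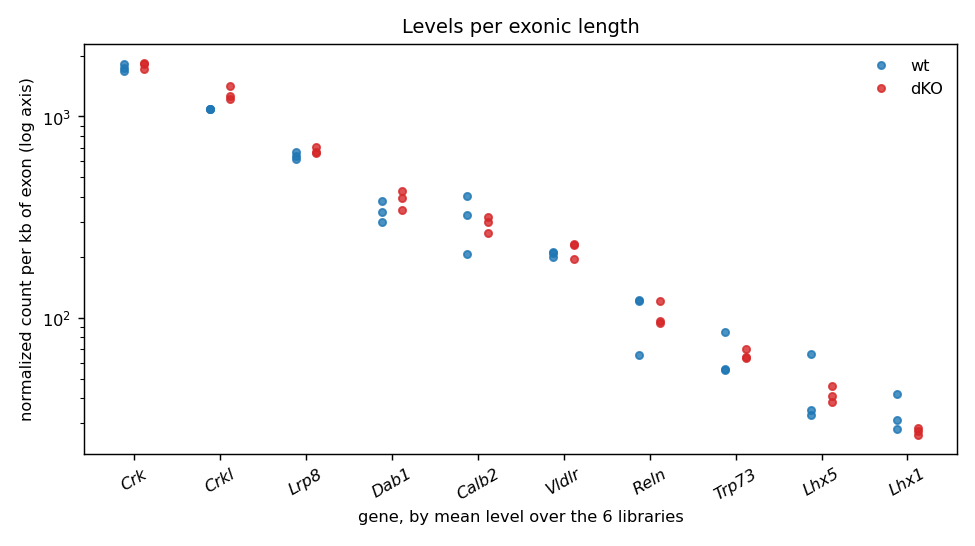
Level of each member per kb of annotated exons in each library (normalized counts per kb, log axis), with points for wild-type and dKO libraries. The members run from *Crk* (1774) to *Lhx1* (30.5), and the genotypes overlap for every member but *Crkl*.

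Among 12732 features with a symbol and a mean of at least 50 normalized counts, the 5 with a pattern over the 6 libraries closest to that of *Reln* were *Sdk2*, *Fat3*, *Cacna1e*, *Cys1* and *D430041D05Rik*. Likeness was measured as the root mean square difference of log2 values centred on each gene's mean, which was 0.109 for *Sdk2* and 0.131 for *D430041D05Rik*. All 5 were lowest in wild-type replicate 3, as *Reln* was, a likeness for which they were picked. *Sdk2*, which encodes a cell adhesion protein, had 43.0 normalized counts in that library and 76.6 to 97.0 in the others, and *Cacna1e*, a calcium channel subunit gene, had 473 there and 695 to 910.2 elsewhere.

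The wider reelin pathway was described by 30 further genes, among them kinases, regulators of DAB1, proteases and other partners of reelin and its receptors. All 30 were tested and none passed an adjusted *P*-value of 0.05 in limma, edgeR or DESeq2. By log2 fold change 20 were higher and 10 lower in the dKO, with a median of 0.06 and a range of -0.51 to 0.24. An unadjusted limma *P*-value under 0.05 was reached by 2 with dKO higher and 1 with dKO lower, beside 4.92% and 6.58% of all features. In all 3 genes were thus below 0.05 before adjustment, beside 11.5% of all features in either direction. The count was 0 without dKO replicate 3 (6.47% of all features), 1 without wild-type replicate 3 (7.35%) and 5 without dKO replicate 2 (12.2%). The genotypes did not overlap for 3 that were higher and 2 that were lower, beside 7.89% and 8.48% of all features.

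Of these further pathway genes, *Socs6*, which encodes a SOCS family protein linked to turnover of phosphorylated DAB1, averaged 1238 ± 111 normalized counts in wild-type and 1457 ± 54.3 in the dKO (SD, n = 3). Its log2 fold change was 0.24 (limma, adjusted *P* = 0.394). *Pik3ca*, a catalytic subunit gene of PI3-kinase, averaged 3030.3 ± 147 and 3534 ± 405, a log2 fold change of 0.22 (limma, adjusted *P* = 0.423). *Gsk3b*, a kinase acting downstream of AKT, averaged 3576 ± 481 and 4069 ± 402, a log2 fold change of 0.19 (limma, adjusted *P* = 0.521). These were the 3 largest upward differences of the list, and for *Gsk3b* the genotypes overlapped. Without dKO replicate 1 the log2 fold changes of *Pik3ca* and *Gsk3b* were 0.13 and 0.11, and without wild-type replicate 3 that of *Gsk3b* was 0.11.

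The 3 largest downward differences were those of *Adamts2*, *Apoe* and *Itga3*. *Adamts2*, a secreted protease that can cleave reelin and is known mainly for processing procollagen, had 381, 344 and 290.2 normalized counts in wild-type and 266, 261 and 189 in the dKO. Every dKO library was below every wild-type library, with a log2 fold change of -0.51 (limma, adjusted *P* = 0.360). *Apoe*, a ligand of the same receptors made largely by glia, had 7741, 3740.0 and 10476 normalized counts in wild-type and 3995, 6983 and 4191 in the dKO. The wild-type libraries of *Apoe* thus spanned more than the dKO libraries, and its log2 fold change moved from -0.46 to -0.14 without wild-type replicate 3 and to -0.88 without wild-type replicate 2. *Itga3*, an integrin subunit gene, averaged 109 ± 17.9 and 86.9 ± 16.1 (SD, n = 3), a log2 fold change of -0.32 (limma, adjusted *P* = 0.603), or -0.16 without dKO replicate 3.

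A further 8 genes used as markers of Cajal-Retzius cells, *Ebf2*, *Ebf3*, *Nhlh2*, *Ndnf*, *Cacna2d2*, *Cxcr4*, *Ackr3* and *Tbr1*, were all tested, and none passed an adjusted *P*-value of 0.05 in limma, edgeR or DESeq2. By log2 fold change 6 were higher and 2 lower in the dKO, with a median of 0.20. An unadjusted limma *P*-value under 0.05 was reached by 2 genes, both higher in dKO, beside 4.92% of all features. The median log2 fold change of this list was 0.00 without wild-type replicate 1 and 0.10 without dKO replicate 3. Without wild-type replicate 1 the count of 2 was 0, beside 8.06% of all features in that fit.

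*Ackr3*, a scavenger receptor for CXCL12, a chemokine that attracts Cajal-Retzius cells and interneurons, had 968, 1454 and 1311 normalized counts in wild-type and 1525, 1643 and 1670.2 in the dKO. *Ackr3* was the only gene of these 8 whose genotypes did not overlap, beside 7.89% of all features with dKO higher and 16.4% in either direction. Its log2 fold change was 0.39 (limma, adjusted *P* = 0.363), or 0.22 without wild-type replicate 1. *Nhlh2*, a neuronal helix-loop-helix factor gene, had 688, 1125 and 913 in wild-type and 1169, 1092 and 1213 in the dKO, a log2 fold change of 0.38 (limma, adjusted *P* = 0.3999), or 0.19 without wild-type replicate 1. *Tbr1*, a T-box factor gene used in deep-layer neurons as well, averaged 7033 ± 677 and 8495 ± 1959 (SD, n = 3), a log2 fold change of 0.25 (limma, adjusted *P* = 0.572). That value was 0.46 without dKO replicate 2, 0.13 without dKO replicate 1 and 0.16 without dKO replicate 3.

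The markers of this second list with negative differences were *Ndnf* and *Cacna2d2*. *Ndnf*, which encodes a secreted neurotrophic protein, averaged 1835 ± 391 normalized counts in wild-type and 1670.1 ± 35.6 in the dKO (SD, n = 3), a log2 fold change of -0.12 (limma, adjusted *P* = 0.749). *Cacna2d2*, a calcium channel subunit gene, averaged 1268 ± 172 and 1206 ± 178, a log2 fold change of -0.07 (limma, adjusted *P* = 0.845). Without wild-type replicate 2 their log2 fold changes turned to 0.05 and 0.03. Of the 8 genes, 3 were highest in that library (*Ndnf*, *Cacna2d2* and *Ebf3*) and 5 were highest in a dKO library. Most of this list thus did not share the highest library of the 4 members.

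Other cells that a cortical dissection can hold were followed by marker lists, since *Reln* and *Calb2* are also made by interneurons, and *Lhx1* and *Lhx5* are made in the diencephalon. The 14 markers of interneurons and the ganglionic eminence summed to 21005 to 27884 normalized counts in wild-type and 19074 to 24873 in the dKO, with the highest sum in wild-type replicate 3, where *Reln* was lowest. None of the 14 passed an adjusted *P*-value of 0.05 in limma, and 1 of them was below 0.05 before adjustment, lower in dKO, beside 6.58% of all features. The highest of them was *Npy*, a neuropeptide gene, with 5600 ± 486 and 4545 ± 1111 (SD, n = 3). The 6 diencephalic markers summed to 90.2 to 214 in wild-type and 111 to 154 in the dKO. Of these, *Tcf7l2* had the highest mean, 72.2 and 93.6 in the 2 genotypes, while *Gbx2*, *Otp*, *Sim1* and *Foxb1* were listed at 0 in at least 1 library. *Otp* reached 60.5 in wild-type replicate 3 and at most 2.15 in the others.

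The 8 choroid plexus and hem markers summed to 40.8 to 167 normalized counts in wild-type, the highest in wild-type replicate 3, and 50.8 to 99.3 in the dKO. *Ttr*, the most abundant transcript of choroid plexus, had 1.90 to 14.0 normalized counts, and *Kcnj13*, *Kl* and *Folr1* were listed at 0 in at least 1 library. The highest of the list was *Aqp1*, with 19.9 ± 8.80 and 13.8 ± 8.26 (SD, n = 3). Of 5 olfactory bulb markers, 4 matched a feature and summed to 103 to 169 in wild-type and 60.3 to 70.8 in the dKO. These sums do not overlap, but most of each sum was *Cdhr1*. For *Cdhr1* itself the genotypes did not overlap either, beside 8.48% of all features with dKO lower. *Cdhr1* alone of these was tested, with means of 120.0 ± 31.97 and 50.8 ± 17.4 (SD, n = 3) and a log2 fold change of -1.24 (limma, adjusted *P* = 0.253). DESeq2 called it, beside 1.07% of all features, and *Tbx21*, *Th* and *Omp* were listed at 0 in at least 1 library. The part of these cells in the values of the members was not tested.

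All 7 meningeal fibroblast markers that matched a feature were lower in the dKO by log2 fold change, while 50.6% of all features were higher. Their median was -0.69, or -0.38 without wild-type replicate 3 and -1.22 without wild-type replicate 2. In wild-type replicate 2 their sum, 609 normalized counts, lay within the dKO range of 592 to 684. None passed an adjusted *P*-value of 0.05 in limma and 1 of 7 was below 0.05 before adjustment, beside 11.5% of all features in either direction. That count was 4 without wild-type replicate 2 (14.3% of all features), in edgeR (11.7%) and in DESeq2 (11.6%). It was 0 without wild-type replicate 3 (7.35%), without dKO replicate 1 (11.9%) and in limma without its trend and robust options (9.88%). The highest, *Col1a2*, averaged 334 ± 184 and 166 ± 20.6 (SD, n = 3). Cajal-Retzius cells lie against the meninges, and the part of meningeal tissue in the levels of their markers was not tested. All 8 cortex markers were higher in dKO, beside 50.6% of all features, at a median log2 fold change of 0.31. Of these, 5 were below 0.05 in limma before adjustment, beside 4.92% of all features with dKO higher. That count was 1 without dKO replicate 1, 2 without wild-type replicate 1 and 3 without wild-type replicate 3 or dKO replicate 3. In these fits 11.9%, 8.06%, 7.35% and 6.47% of all features were below 0.05 in either direction. The count was 6 without dKO replicate 2 (12.2% of all features) and 4 without wild-type replicate 2 (14.3%). None of the 8 passed the adjusted threshold in the reported limma fit. DESeq2 passed 1, beside 1.07% of all features, and limma without wild-type replicate 2 passed 1, beside 32 of 18966 features. The highest of the list, *Neurod6*, averaged 52388 ± 12010 and 61321 ± 11545.

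**Figure D5:**
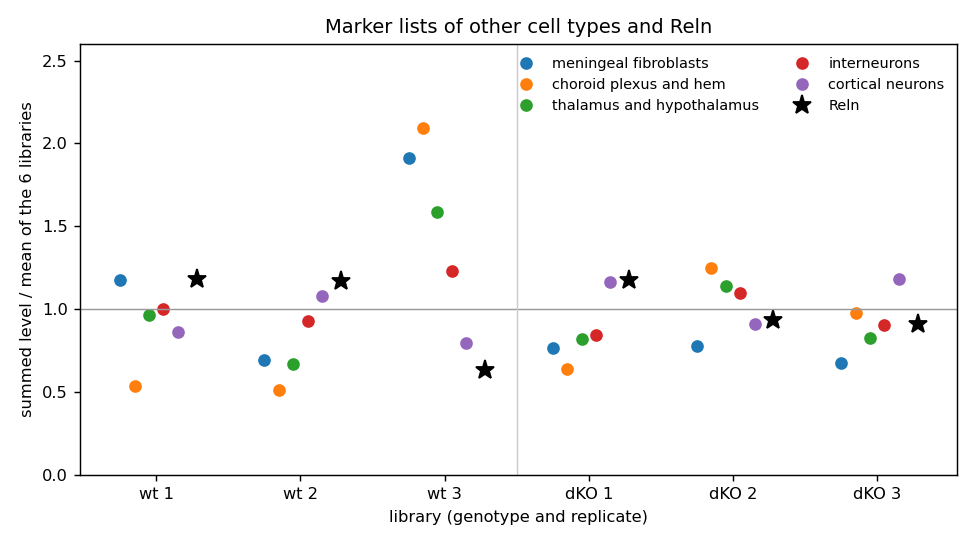
Summed level of the meningeal, choroid plexus and hem, diencephalic, interneuron and cortex marker lists in each library, divided by the list's mean over the 6 libraries. The axis is linear, and *Reln* is drawn in the same way. Wild-type replicate 3 has the highest sum of the meningeal, diencephalic, choroid plexus and interneuron lists. Before the division these sums were 1682, 214, 167 and 27884 normalized counts.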

How the data were processed

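RNA from 6 cortices, 3 a genotype, was sequenced from stranded polyA+ libraries. The deposited table holds 1 value per feature and library that the authors made as a normalized signal with size factors, and 100.0% of positive values were whole multiples, within 0.01, of the value of 1 read, so read counts were recovered (31837922 to 40896541 a library). The study names the FAST database as annotation. The submitters' processing notes name STAR 2.7.5a, Picard, SAMtools, FastQC, DESeq2 and mm10, with no role given, and the counting program and strand setting are not given in the sources used here. The table's columns all matched a sample.

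Features averaging 10 or more normalized counts (18970) were tested with limma 3.58.1 in R 4.3.3 (trend and robust options) on log2(normalized count + 1), genotype as the only term, with Benjamini-Hochberg adjustment over all of them and a threshold of 0.05. Fold changes are on that scale, which understates changes of low genes. Single values were also compared by an exact two-sided permutation test (scipy 1.17.1). edgeR 4.0.16 and DESeq2 1.42.0 were run on recovered reads as alternatives, besides other pseudocounts (0.1, 10), filters (mean of 1, 50 or none), quantile and TMM scaling, limma without its options, a replicate block, a correction for exonic length and leaving out each library. Python 3.11.15, numpy 2.4.6 and pandas 2.3.3 were used for the tables. The fits were tested on simulated data. Exon lengths, coordinates of the shared stretch and its sequence came from GENCODE M21 (GRCm38, the assembly of mm10), and gene spans from the deposited table.

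The members and lists were chosen with earlier results of these data known. Named genes were all members, the 3 largest upward and 3 largest downward differences in each of the further reelin and Cajal-Retzius lists, the gene with the highest mean of each marker list, and the 5 features closest to *Reln* in pattern. Genes named outside this rule are part of a list or a count, or serve as a check of the labels or of shared reads. *Otp* and *Ttr*, also outside it, were chosen after their values were seen. Shared stretches of other gene pairs are not reported here.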

Additional observations from a re-analysis of the deposited data

How the results depend on the processing

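No member passed an adjusted *P*-value of 0.05 in any of the 19 other fits. Over all features 19 passed in the reported fit, and 202 with DESeq2, 9 with the length correction, 5 with the length correction and the replicate block, and 7 in limma without its trend and robust options. Leaving out 1 library gave 7 (without dKO replicate 3) to 46 (without dKO replicate 1), with 32 without wild-type replicate 2, 8 without wild-type replicate 1 and 10 without wild-type replicate 3. Members with an unadjusted *P*-value under 0.05 numbered 1 to 2 when each library was left out, beside 6.47% to 14.3% of all features. Deviations of same-numbered libraries correlated by 0.098, -0.228 and -0.079, and only replicate 1 matched its own number best. Deviations correlated with exonic length by 0.22 in wild-type replicate 1 and 0.31 in dKO replicate 1 (Spearman). In the other libraries that correlation was -0.22 to -0.10. Whether same-numbered libraries shared a litter or a batch was not tested. The replicate block gave 9 calls over all features, of which 8 were among the 19, and changed no member's call. Of 190 member values under the alternatives, 178 kept direction and side of the threshold and 12 changed sign. Quantile normalization turned *Crk* to -0.036 and *Lhx5* to 0.11. Without 1 library, log2 fold changes ran from -0.23 to 0.22 for *Reln*, -0.071 to 0.24 for *Trp73*, -0.20 to 0.29 for *Lhx5*, -0.30 to 0.17 for *Calb2*, -0.22 to 0.053 for *Ndnf* and -0.19 to 0.033 for *Cacna2d2*. The cause was not tested. The unadjusted *P*-value of *Crkl* stayed under 0.05 in each of the 19 fits, and its adjusted value ranged from 0.193 (DESeq2) to 0.735. Depth limits *Lhx1* and *Lhx5* most, at 96 to 165 reads a library.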
